A study of Mus musculus with 18 samples.

Results

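MC38 tumours grown in mice were compared with MC38 cells grown in culture, using only libraries labelled as carrying the wild-type Mbtps1 gene, the controls of a study of that gene. The comparison covers every gene with a count in at least 1 of the 8 libraries, which is 15593 of the 15596 symbols in the deposited count table. MC38 is a cell line from a mouse colon carcinoma, and it forms tumours when implanted in C57BL/6 mice, which share its genetic background. The groups were 5 tumours from wild-type C57BL/6 hosts, per the series description, and 3 libraries of the cultured line; neither group carried the Mbtps1 depletion, and the labels record no drug, age or time of harvest for either. Mbtps1 encodes site-1 protease, which cuts transcription factor precursors in the Golgi. The labels do not say whether replicates came from separate animals or cultures, so each p-value measures the spread between libraries, part of which may be technical.

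A tumour in a mouse is a mixture of the implanted cells and of host cells that enter it: macrophages, lymphocytes, endothelium of new vessels, fibroblasts and remnants of the tissue it displaces. Interferon gamma, secreted by T cells and natural killer cells, raises antigen presentation, guanylate-binding proteins and the chemokines that draw more T cells, while type I interferons raise antiviral genes. Cells in culture are fed, oxygenated and proliferate without these neighbours, and they make lipids and ribosomes at the rate that growth requires. Bulk RNA sequencing measures the sum over all cells in the sample, so host and tumour-cell transcripts are not separated, and fewer cells of a type and less RNA per cell cannot be told apart.

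Control cell libraries held 14240353 to 15155599 counts and control tumour libraries 19630410 to 28316572. Replicates varied by similar amounts in both groups, with a biological coefficient of variation (the square root of edgeR's common dispersion) of 0.101 in cells and 0.111 in tumours. Levels are given as CPM, a gene's counts scaled to a common library total, and fold changes are log2 ratios of tumours over cells from edgeR's quasi-likelihood test. A gene "rose" or "fell" where its p-value, adjusted by the Benjamini-Hochberg method over the 12415 genes tested, was below 0.05. Of the 12689 genes with counts in both groups, 274 were removed as too low to test. A further 2584 genes are listed at 0 in all 3 cell libraries, and 320 are listed at 0 in all 5 tumour libraries. These were not tested. No gene in the table has a sum between 1 and 12 over its 6 cell libraries or between 1 and 14 over its 10 tumour libraries, so "listed at 0" may cover a few reads.

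The contrast was broad. In control tumours 5054 genes rose (40.7% of those tested) and 4761 fell (38.3%), 79.1% together, with a median log2 fold change over all tested genes of 0.04. With a further limit of a 2-fold difference, 2599 rose (20.9%) and 2053 fell (16.5%). The counts of each gene list below are read against these shares. The 2 groups did not overlap for 9388 of the tested genes (75.6%). Genes named below for the size of their change were taken from these, so their gap between the groups was fixed by that choice.

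The size and direction of the change followed the make-up of the transcript. In the 2441 genes of lowest GC content the median log2 fold change was -0.85, and 72.0% of them fell. In the 2440 of highest GC content the median was 0.81, and 72.8% rose. Transcript length ran the other way, with a median of 0.82 in the 2440 genes with the shortest transcripts and -0.72 in the 2439 with the longest. Over 12200 genes, which are not independent replicates, Spearman's rho with the log2 fold change was 0.54 for GC content and -0.44 for length. Libraries of 1 group stood together: the count-weighted mean GC content was 48.6% to 49.1% in cells and 51.1% to 51.6% in tumours. All cells are in one group and all tumours in the other, so a property of the tissue and a property of its library preparation cannot be told apart. Counts were therefore also corrected for both trends, an alternative chosen after seeing the data. The corrected fit called 4421 genes higher and 4422 lower (35.6% each), 1834 of them more than 2-fold higher (14.8%) and 913 more than 2-fold lower (7.35%). The trends were fitted to these same genes and each library was centred. Corrected medians near 0 and the near-even split of calls therefore largely follow from the method. Corrected values are given for some of the genes and groups. Genes with close copies (class I heavy chains, Gbp and Oas genes, alpha globins, Hspa1a, ribosomal proteins with pseudogenes) could share reads, and the split between copies is uncertain.

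**Figure D1:**
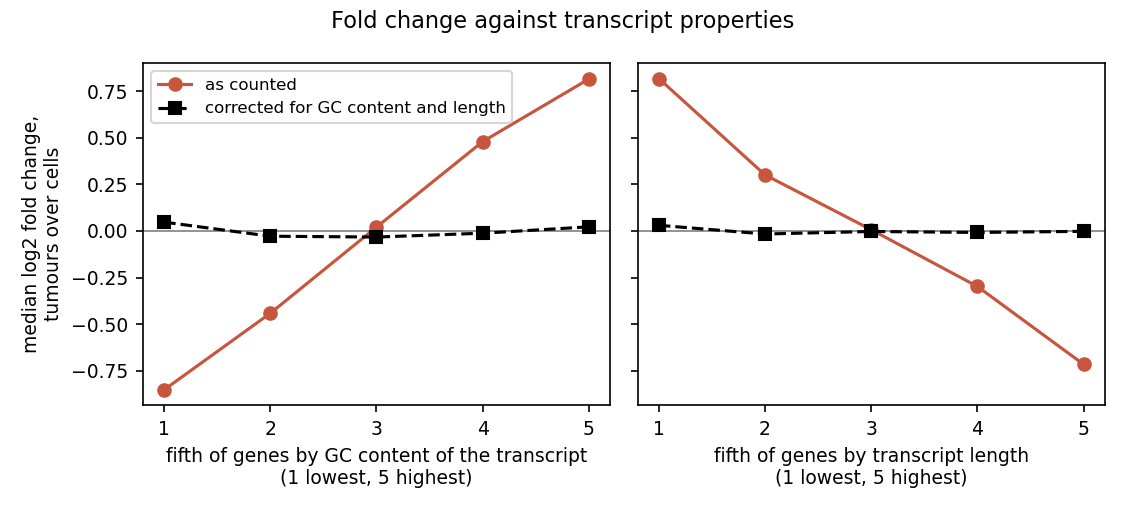
Median log2 fold change of tumours over cells (vertical axis) for 5 bins of the tested genes ordered by transcript GC content (left) and by transcript length (right), as counted and after correction. As counted, the medians run from -0.85 to 0.81 with GC content and from 0.82 to -0.72 with length. The corrected medians lie near 0 because the correction removed these trends, fitted to the same genes.

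Genes of host leukocytes were abundant in every tumour and mostly close to absent from cultured cells. Ptprc, the CD45 antigen carried by all nucleated blood cells, was listed at 0 in the cells and measured 59.5, 39.5, 59.6, 46.8 and 41.7 CPM in tumours 1 to 5. Lcp1, an actin bundler of leukocytes, was at 0.42, 0.132 and 0.211 CPM in the 3 cell libraries and 243, 145, 207, 164 and 187 CPM in the tumours (log2 fold change 9.62, SE 0.30, adjusted p = 1.5e-11). The groups did not come near each other for either gene. Of 15 leukocyte markers, 13 were listed at 0 in cells, and the 2 that could be tested, Lcp1 and Itgb2, rose. The 15 markers summed to 13.6 to 21.2 CPM in cells, nearly all of it Itgb2, and 1203 to 2109.7 CPM in tumours. Itgb2 rose less than Lcp1, by 1.95 to 2.24 on the log2 scale with 1 library left out.

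Macrophage and monocyte markers had summed levels of 34.1, 38.9 and 39 CPM in the cells and 10972, 6819.6, 8588, 7669.6 and 6499.5 CPM in tumours 1 to 5. Lyz2, which encodes lysozyme of myeloid cells, was at 0.0700, 0.198 and 0.562 CPM in cells and 1417, 625, 1054, 791 and 797 CPM in tumours (log2 fold change 11.81, SE 0.54, adjusted p = 5.2e-08). Apoe, a lipid carrier that tumour macrophages secrete, went from 2.52, 3.17 and 4.28 CPM to 5338, 3666, 4073, 3764 and 2864 CPM (log2 fold change 10.32, SE 0.30, adjusted p = 2.3e-11). Without cell replicate 3 the Lyz2 value was 12.80. Tumour 1 had the highest level of both genes. The receptor for macrophage colony-stimulating factor, Csf1r, was listed at 0 in cells and lay at 295, 161, 257, 199 and 184 CPM in the tumours. The C1q genes C1qa, C1qb and C1qc, made mainly by tissue macrophages, were likewise listed at 0 in cells and averaged 786 ± 165 CPM, 893 ± 213 CPM and 608 ± 102 CPM (SD, n = 5) in tumours. Arg1, an arginine-degrading enzyme of one macrophage state, averaged 0.186 ± 0.109 CPM (SD, n = 3) in cells and 63.8 ± 20.1 CPM (SD, n = 5) in tumours. All 7 macrophage markers that could be tested rose, from Cd14 at 0.82 to Lyz2. After the correction 6 of them rose, and Cd14 had a value of 0.18 (adjusted p = 0.19).

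Lymphocyte transcripts were present at lower summed levels. Of 14 T cell markers in the table, 12 were listed at 0 in cells, among them every CD3 chain. Cd8a, the co-receptor of cytotoxic T cells, was at 20.4, 11.6, 15, 10.4 and 9.82 CPM in tumours 1 to 5, and Cd3g at 16.8, 8.99, 11.5, 6.72 and 6.46 CPM. Foxp3, the factor that defines regulatory T cells, ranged from 1.42 to 4.81 CPM. Tumour 1 was the highest for all 3 of these genes. Natural killer markers summed to 1.19 to 1.54 CPM in cells, where 9 of 10 were listed at 0, and 73.2, 37.3, 41.4, 46.5 and 42.7 CPM in the tumours. Gzma and Prf1, which encode a granzyme and the pore-forming protein of killer cells, were listed at 0 in cells and averaged 3.9 ± 1.69 CPM and 9.42 ± 2.72 CPM. Ifng itself was listed at 0 in the cells and measured 1.92, 1.24, 1.7, 1.43 and 1.31 CPM in tumours.

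The mixture also held vessel, skin, muscle, blood and mast cell transcripts. Endothelial markers summed to 4.83 to 6.14 CPM in cells and 319 to 386 CPM in tumours, and all 7 that were tested rose more than 2-fold with and without the correction. Plvap, which forms the diaphragms of fenestrated vessels, stood at a log2 ratio of 8.13 (SE 0.18, adjusted p = 4.8e-14), and Pecam1, the CD31 antigen, at 6.77 (SE 0.38, adjusted p = 6.7e-09). Without cell replicate 1 the Pecam1 value was 7.76. The 6 mast cell markers were all listed at 0 in cells, and the tryptase gene Tpsb2 reached 37.1, 20.7, 40.7, 36.6 and 36 CPM in tumours. Skeletal muscle actin, Acta1, was at 0, 0.066 and 0.14 CPM in cells and 43.2, 45.1, 46.4, 36.3 and 55 CPM in tumours (log2 fold change 9.34, SE 0.30, adjusted p = 1.3e-12; 10.25 without cell replicate 3). Krt14, a keratin of basal skin cells, was listed at 0 in cells and ranged from 16.2 to 64.6 CPM, and the haemoglobin gene Hba-a2 from 6.69 to 12 CPM. Neutrophil markers summed to 13.2 to 20.9 CPM in cells and 119 to 133 CPM in tumours. Most of that sum was Mmp9, a secreted protease that other cells also make, which rose (log2 fold change 2.69, SE 0.12, adjusted p = 2.9e-11). The other 6, listed at 0 in cells, included Csf3r, the receptor for granulocyte colony-stimulating factor, at 16.1 ± 4.88 CPM in tumours, and S100a8 and S100a9, at 1.74 ± 1.21 CPM and 2.3 ± 1.7 CPM (SD, n = 5).

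**Figure D2:**
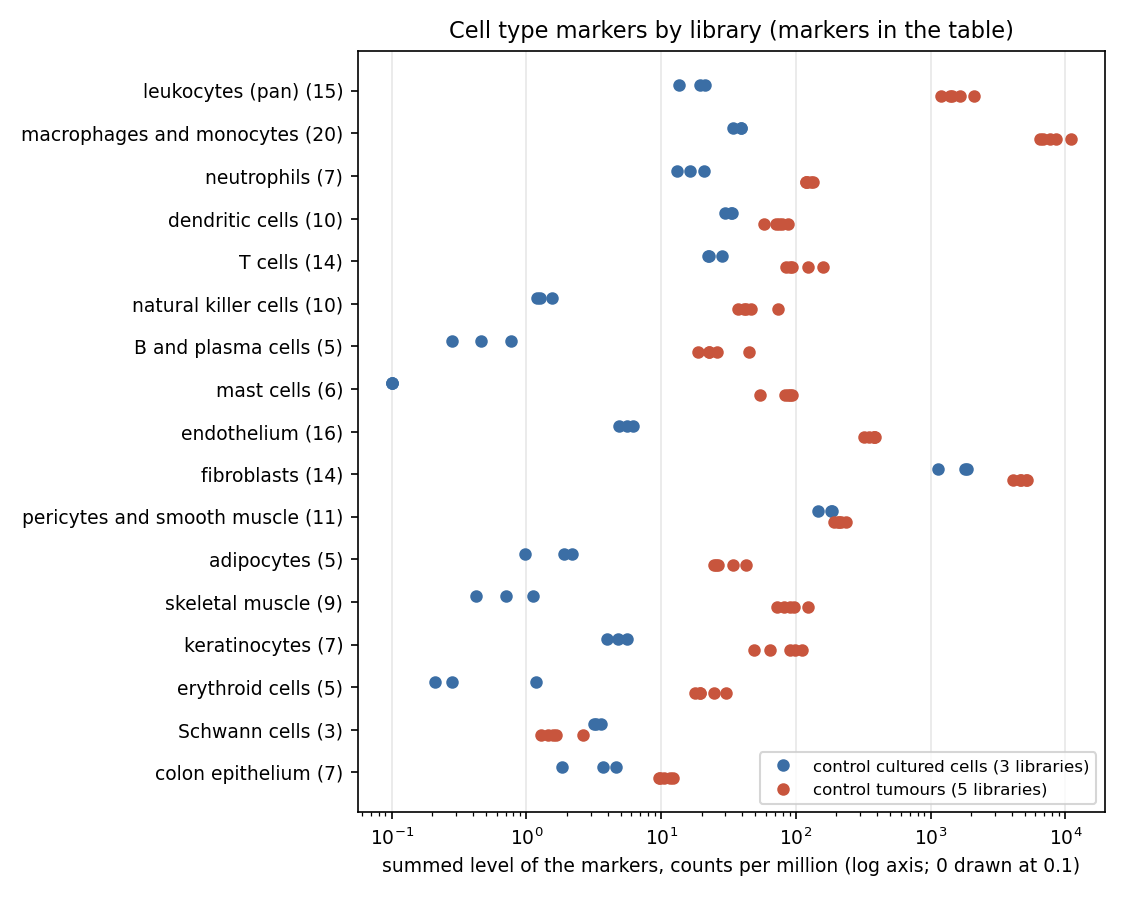
Summed level of each cell type's markers (horizontal, log axis, CPM) in the 3 control cell libraries and the 5 control tumour libraries; the number of markers in the table stands after each name. Macrophage markers lie at 6499.5 to 10972 CPM in tumours and 34.1 to 39 CPM in cells, and the mast cell markers are all at 0 in cells, drawn at the left edge.

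Some single markers did not follow this pattern, and the cultured line expressed them. Of 10 dendritic cell markers, 7 were listed at 0 in cells and present in tumours, among them Itgax, the CD11c integrin, at 38.2 ± 6.15 CPM (SD, n = 5), and Batf3, a transcription factor, rose by 3.12. Clec9a, a receptor of the same list, fell from 22.2, 21.6 and 21.6 CPM to 9.34, 7.8, 9.8, 6.57 and 8.9 CPM (log2 fold change -1.25, SE 0.13, adjusted p = 1.8e-07). The list summed to 30 to 33.4 CPM in cells and 58.2 to 88.1 CPM in tumours. Of 11 pericyte and smooth muscle markers, 7 were listed at 0 in cells and present in tumours, and 3 of the 4 tested rose more than 2-fold, such as Rgs5 at 5.45 and Pdgfrb at 3.80. The fourth, the proteoglycan Cspg4, fell from 142 to 182 CPM in cells to 61.5 to 72.8 CPM in tumours (log2 fold change -1.23, SE 0.09, adjusted p = 3.6e-09). Fibroblast markers mostly rose: 6 of 14 were listed at 0 in cells, and 6 of the 8 tested rose, 5 more than 2-fold. The list summed to 1140 to 1865 CPM in cells and 4067 to 5178 CPM in tumours. The other 2 tested, Pdgfra and Fbln1, stood at -0.11 (SE 0.09, adjusted p = 0.3) and -0.14 (SE 0.08, adjusted p = 0.15) on the log2 scale, with overlapping groups. After the correction Pdgfra rose by 0.58 and Fbln1 fell by 0.45. Tcf7, a transcription factor of T cells, rose slightly with overlapping groups, at 20.9 to 25.9 CPM in cells and 24.3 to 27.5 CPM in tumours (log2 fold change 0.30, SE 0.10, adjusted p = 0.013). The Tcf7 call was lost without cell replicate 2 (0.24, adjusted p = 0.068) or 3 (0.25, adjusted p = 0.052), and corrected the value was -0.05 (adjusted p = 0.65). Fbln1 passed the test without tumour 3 (-0.20, adjusted p = 0.046). Markers of colon epithelium summed to 1.83 to 4.62 CPM in cells and 9.58 to 12.1 CPM in tumours. The one that could be tested, the lectin gene Lgals4, was at 0.613 ± 0.223 CPM (SD, n = 3) in cells and 4.75 ± 0.642 CPM (SD, n = 5) in tumours (log2 fold change 3.04, SE 0.27, adjusted p = 3.2e-08; corrected 2.20). Epcam, Cdh1, Krt7, Krt20 and Muc2 were listed at 0 in the cultured line and, Cdh1 apart, stayed below 1 CPM in every tumour, and Cdh1, the epithelial cadherin, was at 5.08, 3.16, 5.77, 3.87 and 4.27 CPM in tumours. Krt8, a simple-epithelium keratin, was at 3.29, 3.76 and 1.26 CPM in cells and listed at 0 in all 5 tumours. Krt18, Krt19 and Cdx2 had no entry in the count table used here. Vim, an intermediate filament of mesenchymal cells, was at 4078, 3714 and 3864 CPM in cells and 3282, 4081, 3389.9, 3616 and 3490.3 CPM in tumours, with overlapping groups (log2 fold change -0.01, SE 0.09, adjusted p = 0.91).

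Reads of the 2584 genes listed at 0 in cells made up 2.44, 1.54, 2.01, 1.81 and 1.65% of the counts of tumours 1 to 5, or 1.89 ± 0.354% (SD, n = 5). Counting instead all genes that averaged under 1 CPM in the cells, the share was 3.02 ± 0.532% (SD, n = 5) in tumours and 0.0733 ± 0.00493% (SD, n = 3) in cells. These shares are not a proportion of host cells, since host cells also transcribe genes that the line expresses.

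Antigen presentation by MHC class II was one of the largest gains. Cd74, the invariant chain that guides class II molecules, was at 0.21, 0.132 and 0 CPM in cells and 3295, 1265, 1863, 1854 and 1508 CPM in tumours 1 to 5 (log2 fold change 14.09, SE 0.71, adjusted p = 2.8e-07; 14.80 without cell replicate 1). The class II chains H2-Aa, H2-Ab1 and H2-Eb1 were listed at 0 in cells and averaged 658 ± 264 CPM, 871 ± 333 CPM and 566 ± 233 CPM (SD, n = 5). Tumour 1 was the highest and tumour 2 the lowest for each of these 4 genes. H2-DMa and H2-DMb1, which load peptides, rose by 5.80 and 5.13 on the log2 scale. Ciita, the regulator of the class II genes, was listed at 0 in cells and measured 24, 8.53, 16.7, 14.5 and 10.5 CPM in tumours.

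Genes induced by interferon rose almost without exception. Of the 18 members of the interferon gamma list that could be tested, 18 rose, 17 of them more than 2-fold, with a median log2 fold change of 3.10, and 5 more were listed at 0 in cells. The type I interferon list had 27 of 28 tested members higher, 26 of them more than 2-fold, with a median of 3.51. These shares stand against 40.7% and 20.9% of all tested genes. After the correction 17 of 18 and 28 of 28 rose, with medians of 3.67 and 3.25. The exceptions were Ifit2 as counted (log2 fold change -0.00, SE 0.15, adjusted p = 0.98) and Wars1 once corrected, at 0.14 (adjusted p = 0.1).

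Effector genes of the interferon gamma response showed wide gaps between groups. Iigp1, a GTPase that attacks parasite vacuoles, was at 0.14, 0.528 and 0.562 CPM in cells and 182, 154, 145, 146 and 142 CPM in tumours (log2 fold change 8.63, SE 0.21, adjusted p = 7.9e-14). The guanylate-binding protein gene Gbp2 rose from 55, 60.2 and 42.3 CPM to 942, 541, 667, 677 and 726 CPM (log2 fold change 3.87, SE 0.19, adjusted p = 1.8e-09). No tumour overlapped a cell library for either. Gbp5 and Gbp4 rose by 6.94 and 5.85 on the log2 scale. Cxcl10, a chemokine that draws CXCR3-bearing T cells, was already made by cultured cells at 37.9, 39.2 and 35.5 CPM and reached 392, 399, 309.5, 387 and 314 CPM in tumours (log2 fold change 3.37, SE 0.12, adjusted p = 3e-12). Cxcl9, another ligand of the same receptor, was listed at 0 in cells and lay at 375, 176, 211, 267 and 235 CPM. Cd274, the PD-L1 ligand that restrains T cells, was at 11.1, 10.3 and 10.4 CPM in cells and 69, 46.3, 50.8, 56.1 and 51.4 CPM in tumours (log2 fold change 2.48, SE 0.14, adjusted p = 1.6e-10). Of the transcription factors, Irf1 rose by 1.74, and Irf8 was listed at 0 in cells and averaged 53.4 ± 12.3 CPM. Nlrc5, the regulator of class I genes, rose by 2.72.

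Antiviral genes moved the same way. Zbp1, a sensor of Z-form nucleic acids, was at 0.49, 0.264 and 0.0702 CPM in cells and 345, 325, 297, 348 and 320.2 CPM in tumours (log2 fold change 10.29, SE 0.21, adjusted p = 2.8e-14; 10.97 without cell replicate 1). Ifit3, an inhibitor of viral translation, went from 4.55, 7.59 and 2.81 CPM to 264, 240.2, 289, 233 and 227 CPM (log2 fold change 5.75, SE 0.23, adjusted p = 2.7e-10). The 5 tumours lay within a narrow band for Zbp1. Oasl1, Oas2 and Irf7 rose by 6.72, 6.19 and 6.08 on the log2 scale, and Isg15, a ubiquitin-like modifier, by 4.25. Ifit2 was the member that had not passed: its levels were 45, 49.8 and 38.3 CPM in cells and 47, 29.4, 51.6, 40.3 and 36.6 CPM in tumours, which overlap, and its corrected log2 fold change was 0.86 (adjusted p = 0.002).

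MHC class I presentation rose from a level already present in culture. H2-K1, a class I heavy chain, was at 514, 501 and 381 CPM in cells and 3996, 3119, 3298, 3629 and 3277 CPM in tumours (log2 fold change 3.01, SE 0.13, adjusted p = 1.1e-11). B2m, the class I light chain, went from 743, 693 and 666 CPM to 2691, 3501, 2709, 2760.2 and 2811 CPM (log2 fold change 2.16, SE 0.11, adjusted p = 5.7e-11), with tumour 2 the highest. Psmb9, a subunit of the immunoproteasome, rose by 4.76 (SE 0.20, adjusted p = 2.9e-10), and the peptide transporter subunit Tap1 by 2.83 (SE 0.19, adjusted p = 3.8e-08). In this list 16 of 17 tested members rose more than 2-fold, and the remaining one, Erap1, which trims peptides, stood at -0.15 (SE 0.08, adjusted p = 0.1). All 17 rose after the correction, Erap1 by 1.02, whereas without tumour 3 it was called lower (-0.20, adjusted p = 0.043).

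Interferon-stimulated gene factors bind DNA that holds paired GAAA repeats. The core GAAA, any 2 bases, GAAA was searched on both strands of the RefSeq promoter windows of GRCm38.p6, which run from 250 bases before to 50 bases after each gene's start. It was present in 3.44% of all 32851 windows and 3.00% of the 12363 windows of tested genes. The type I interferon list had it in 12 of 25 windows (48%), from 20 matched genes, the interferon gamma list in 9 of 18 (50%), from 15, and the class I list in 4 of 16 (25%), from 14. A window was counted once however many matches it held. The following 30-base stretches, on the strand of their gene, are shown because their genes are the ones described above or are close relatives; capitals mark the core, or its reverse complement where it lies on the other strand.
Ifit3 (chr19:34583363-34583392, plus strand): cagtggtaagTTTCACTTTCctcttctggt
Ifit3 (chr19:34583397-34583426, plus strand): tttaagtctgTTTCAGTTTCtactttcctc
Isg15 (chr4:156200871-156200900, minus strand): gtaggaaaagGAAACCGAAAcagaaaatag
Gbp2 (chr3:142620594-142620623, plus strand): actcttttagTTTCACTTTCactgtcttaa
Gbp5 (chr3:142496759-142496788, plus strand): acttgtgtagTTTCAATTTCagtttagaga
Igtp (chr11:58199512-58199541, plus strand): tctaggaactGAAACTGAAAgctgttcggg
Irgm2 (chr11:58214903-58214932, plus strand): tccaggaactGAAACTGAAAgctgttcggg
Cxcl10 (chr5:92349083-92349112, minus strand): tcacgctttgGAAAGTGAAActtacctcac
B2m (chr2:122147538-122147567, plus strand): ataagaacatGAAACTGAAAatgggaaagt
Ifit3 has 2 separate copies. The Isg15 stretch also holds matches that overlap the marked one on either side, whose other letters are left small. The stretches of Igtp and Irgm2, both immunity-related GTPases, share most of their letters, and the genes rose by 4.16 and 3.55. The match is a description of these letters and shows no binding.

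Most chemokine, checkpoint and complement genes rose or were listed at 0 in cells, while cytokines and growth factors were divided. Of 23 chemokines in the table, 17 were listed at 0 in cells, 5 rose (Ccl2, Ccl5, Ccl7, Cx3cl1 and Cxcl10) and 1 fell. Ccl5, a chemokine of T cells and macrophages, was at 2.45, 1.72 and 0.983 CPM in cells and 179, 107, 121, 126 and 113 CPM in tumours (log2 fold change 6.34, SE 0.28, adjusted p = 1.7e-09). The member that fell was Cxcl1, a neutrophil attractant, from 7.77, 7.65 and 8.01 CPM to 3.3, 5.09, 4.19, 3.67 and 3.21 CPM (log2 fold change -0.90, SE 0.17, adjusted p = 0.00019). Of the checkpoint genes, Lgals9, Lag3 and Havcr2 rose by 2.61, 3.63 and 2.49, and Pdcd1, which encodes PD-1, was listed at 0 in cells and measured 21.4, 7.66, 12.6, 7.03 and 6.29 CPM. Of 11 cytokines and growth factors tested, 6 rose, 4 fell and 1 did not pass, and corrected 7 rose and 3 fell. Another 12 were listed at 0 in cells. Among those tested Tgfb3 rose, from 52.4, 59.3 and 31.7 CPM to 359, 560.0, 524, 478 and 474 CPM (log2 fold change 3.44, SE 0.21, adjusted p = 3.9e-08), and Il33, an alarmin, fell by 1.83. All 6 complement genes that could be tested rose, with a median of 4.79, and 11 of 17 were listed at 0 in cells. C3, the central component, was at 0.77, 0.462 and 0.211 CPM in cells and 132, 47.6, 77.8, 73.3 and 58.2 CPM in tumours (log2 fold change 7.43, SE 0.63, adjusted p = 1.2e-05).

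Most collagen genes rose, and other matrix proteins were more divided. Several genes rose from a level already present in culture. Of 18 collagen and collagen-processing genes tested, 17 rose, 14 more than 2-fold, with a median of 2.0; after the correction 16 rose and the median was 2.19. Col1a1, the main chain of type I collagen, was at 0.49, 0.33 and 0 CPM in cells and 336, 502, 446, 398 and 387 CPM in tumours (log2 fold change 10.63, SE 0.30, adjusted p = 6.6e-12; 11.31 without cell replicate 1). Col3a1 was by contrast well expressed in culture, at 1362, 1313 and 763 CPM, and reached 2829, 3480.3, 3595, 3293 and 3164 CPM in tumours (log2 fold change 1.63, SE 0.16, adjusted p = 8.3e-07). Tumour 2 was highest and tumour 1 lowest for Col1a1. Of 8 other matrix proteins tested, 4 rose, 1 fell and 3 did not pass, with a median of 0.58. All tested genes had 40.7% higher and 38.3% lower. Corrected, 6 of the 8 rose and 1 fell, and 7 more members were listed at 0 in cells. Fn1, fibronectin, rose from 1072, 1113 and 811 CPM to 3089, 4496, 4094, 5162 and 4908 CPM (log2 fold change 2.24, SE 0.17, adjusted p = 3.8e-08). Tgfbi and Bgn, a TGF-beta induced adhesion protein and the proteoglycan biglycan, rose by 10.27 and 8.68 (Bgn 9.69 without cell replicate 1), and Sparc, a collagen-binding glycoprotein, by 2.32. Postn and Tnc, matrix proteins of activated fibroblasts, were listed at 0 in cells and averaged 159 ± 34.6 CPM and 101 ± 27.6 CPM.

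A few matrix genes went the other way. Plod2, a collagen lysyl hydroxylase, fell, from 254, 242 and 175 CPM to 79.1, 172, 128, 133 and 158 CPM (log2 fold change -0.63, SE 0.23, adjusted p = 0.029). Its call was lost without cell replicate 1 (log2 fold change -0.52, adjusted p = 0.10) or cell replicate 2 (-0.58, adjusted p = 0.092), and the corrected value was 0.11 (adjusted p = 0.66). Thbs2, an inhibitor of vessel growth, fell from 1034, 1029 and 1064 CPM to 382, 403, 372, 461 and 412 CPM (log2 fold change -1.25, SE 0.08, adjusted p = 1.3e-09), and corrected it fell by 0.67. The laminin chains Lamb1 and Lamc1 fell (log2 fold changes -0.71 and -0.61), while 8 of 10 basement membrane genes rose, led by Col18a1 at 4.73. Of 15 proteases and inhibitors tested 11 rose, among them Mmp3 by 3.29 and Mmp9 by 2.69, and Adamts1, Mmp10 and Timp2 fell (-0.60, -0.79 and -0.51). The Mmp10 call, with an adjusted p of 0.047, was lost without any 1 cell library and without tumour 1, 3 or 4, at adjusted p values of 0.064 to 0.10.

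H19, an imprinted RNA that is transcribed from the maternal allele of fetal and regenerating tissue, showed one of the largest rises that could be tested. It was at 5.39, 4.22 and 1.4 CPM in the 3 cell libraries and 6269.9, 6462, 7295, 6976 and 6093 CPM in tumours 1 to 5 (log2 fold change 10.92, SE 0.32, adjusted p = 4e-11). The tumours lay close together, and cell replicate 3 was the lowest of the cells. Its neighbour in the genome, the growth factor gene Igf2, was listed at 0 in cells and measured 15.6, 18.6, 26.2, 21.7 and 12.4 CPM in tumours. Of 11 imprinted genes, 5 (Igf2 among them) were listed at 0 in cells and present in tumours. Of the 6 tested, H19, Cdkn1c and Peg3 rose, the last 2 by 1.48 and 0.94, and Plagl1 and Grb10 fell by 1.38 and 0.37. Gnas stood at 0.25 (SE 0.13, adjusted p = 0.093) and passed without tumour 1 (0.32, adjusted p = 0.018). After the correction H19 and Peg3 rose, Plagl1 fell, and the calls of Cdkn1c, at 0.56 (adjusted p = 0.11), and Grb10, at 0.11 (adjusted p = 0.14), were lost. Xist, the RNA that coats the inactive X chromosome of female cells, was at 0.98, 1.32 and 0.913 CPM in cells and 61.1, 64.4, 76.5, 55.7 and 53.6 CPM in tumours (log2 fold change 5.96, SE 0.18, adjusted p = 9.1e-13). The Y chromosome genes looked up, Ddx3y, Uty, Kdm5d and Eif2s3y, had no entry in the count table used here.

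**Figure D3:**
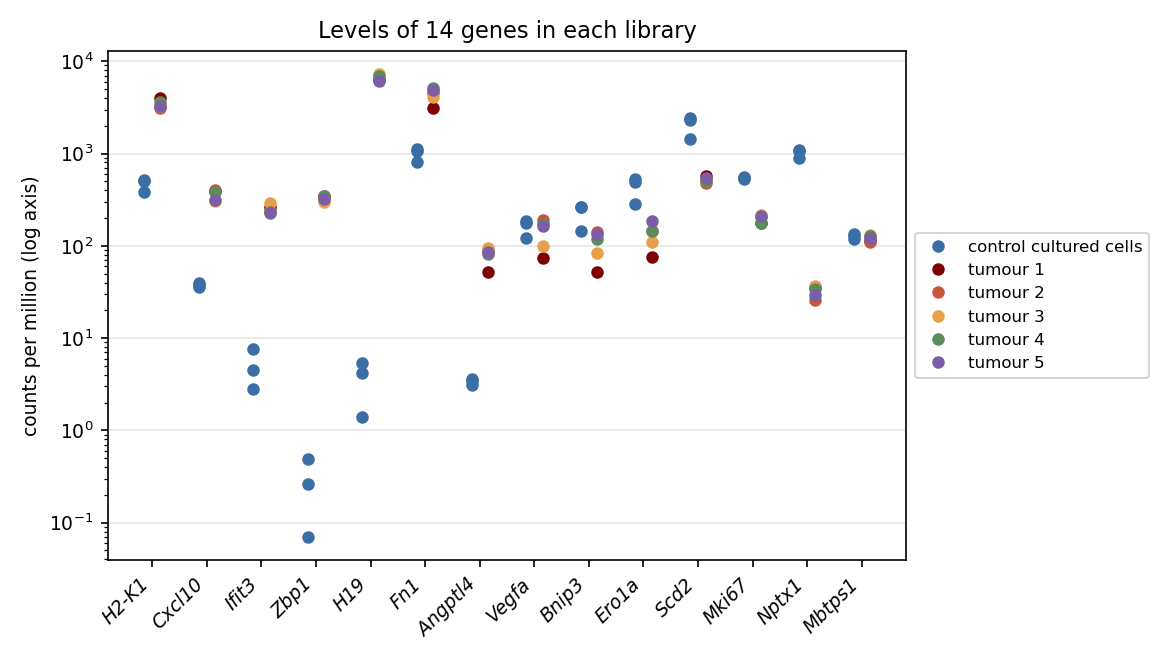
Level of each of 14 genes (vertical, log axis, CPM) in the 3 control cell libraries and in tumours 1 to 5. H19 and Zbp1 lie far above the cells in every tumour, Scd2, Mki67 and Nptx1 lie below them, and Vegfa and Mbtps1 overlap.

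Genes of cell division were lower in tumours. Of 20 mitosis genes, 19 fell, 11 more than 2-fold, with a median of -1.04, against 38.3% and 16.5% of all tested genes. Corrected for GC content and length, 19 again fell, 7 of them more than 2-fold (against 7.35%), with a median of -0.71. Mki67, the Ki-67 antigen of cycling cells, was at 554, 529 and 544 CPM in cells and 176, 208, 218, 177 and 211 CPM in tumours (log2 fold change -1.35, SE 0.08, adjusted p = 5.6e-10); its corrected value was -0.33 (adjusted p = 0.00068). Bub1, a spindle checkpoint kinase, went from 174, 162 and 161 CPM to 25.5, 31.9, 33.7, 28.5 and 32.9 CPM (log2 fold change -2.33, SE 0.09, adjusted p = 5.1e-12; corrected -1.47). Neither gene overlapped between groups. The member that did not pass was Birc5, at -0.12 (SE 0.11, adjusted p = 0.32). Of 23 DNA replication genes 18 fell both as counted and corrected, with medians of -0.60 and -0.81. Rrm2, the regulated subunit of ribonucleotide reductase, fell from 394, 409 and 524 CPM to 126, 115, 124, 116 and 121 CPM (log2 fold change -1.77, SE 0.09, adjusted p = 9.2e-11). Gins2 and Pold1 rose by 0.66 and 0.53, and Pold1 once corrected fell by 0.18. The host-cell markers described above rose in the same tumours, and their part in these falls was not tested.

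Most ribosome biogenesis genes followed the same direction. In this list 17 of 22 fell with and without the correction (medians -0.79 and -0.68). Utp20, a processing factor of the small subunit, fell from 314, 282 and 372 CPM to 60.2, 55, 68.7, 61 and 63.8 CPM (log2 fold change -2.28, SE 0.10, adjusted p = 1.3e-11; corrected -1.34). Ncl, nucleolin, and Wdr12 fell as counted, at -0.95 and -0.88, and rose once corrected, at 0.32 and 0.68. Bop1, Fbl and Nle1 rose as counted, at 0.32, 0.81 and 0.32, and fell once corrected, at -0.41, -0.29 and -0.66. The rise of Nle1 was not called without cell replicate 1 or 2 or without tumour 2, 4 or 5, where it was 0.15 to 0.34 (adjusted p 0.066 to 0.30). Myc, which drives both programs, was at 152, 166 and 156 CPM in cells and 112, 173, 121, 157 and 145 CPM in tumours, with overlapping groups (log2 fold change -0.05, SE 0.13, adjusted p = 0.73), and its corrected log2 fold change was -0.52 (adjusted p = 0.0031).

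Most lipid synthesis genes were lower as well. Of 23 genes of cholesterol synthesis and its feedback, 13 fell, 12 of them more than 2-fold, and 5 rose, with a median of -1.12. After the correction 17 fell and 3 rose, and the median was -0.72. Hsd17b7, a ketoreductase of the pathway, was at 52.5, 46.1 and 48.2 CPM in cells and 10.9, 10.7, 10.5, 11 and 11.2 CPM in tumours (log2 fold change -2.07, SE 0.09, adjusted p = 1.5e-11; corrected -1.22). Stard4, a carrier of cholesterol inside the cell, fell from 117, 97 and 91.8 CPM to 30.1, 21.6, 25.9, 22.6 and 24.8 CPM (log2 fold change -1.92, SE 0.11, adjusted p = 2e-10; corrected -1.01). Ebp, Mvd, Mvk, Pmvk and Tm7sf2 rose, by 1.19, 1.10, 0.58, 1.28 and 1.97. Of these 5, Ebp and Tm7sf2 rose after the correction as well, and Mvk fell by 0.43. In fatty acid synthesis 10 of 13 fell in either fit. Scd2, a desaturase, went from 2290.5, 2434 and 1420.5 CPM to 573, 481, 506, 502 and 547 CPM (log2 fold change -1.86, SE 0.14, adjusted p = 1.8e-08), and Fasn, the synthase, from 1107 to 1124 CPM to 491 to 605 CPM (log2 fold change -0.89, SE 0.08, adjusted p = 4.8e-08). Elovl1 rose, by 0.79. Mbtps1, whose protease releases the factors that drive these genes, was at 129, 135 and 118 CPM in cells and 114, 110.3, 129.8, 129 and 122 CPM in tumours, which overlap (log2 fold change 0.04, SE 0.08, adjusted p = 0.68).

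Hypoxia genes did not move as a group. Of 25 tested, 6 rose, 9 fell and 10 did not pass, and corrected 7 rose, 4 fell and 14 did not pass. The median was 0.06 as counted, -0.06 with library totals as the scaling, and -0.26 to 0.18 with 1 library left out. Vegfa, the vessel growth factor that low oxygen induces, was at 178, 185 and 123 CPM in cells and 72.9, 190.4, 98.9, 172 and 163 CPM in tumours (log2 fold change -0.10, SE 0.34, adjusted p = 0.8). Tumours 1 and 3 lay below every cell library and tumour 2 above. Bnip3, a mitophagy receptor, fell from 262, 260.5 and 143 CPM to 52.3, 140.0, 83.5, 118 and 134 CPM (log2 fold change -0.96, SE 0.35, adjusted p = 0.038). That call was lost without cell replicate 1 (log2 fold change -0.82, adjusted p = 0.10), cell replicate 2 (-0.84, adjusted p = 0.10) or tumour 3 (-0.90, adjusted p = 0.060), and corrected it was -0.55 (adjusted p = 0.18). Ero1a, an oxidase of the endoplasmic reticulum, fell from 523, 495 and 283 CPM to 75.6, 144, 111, 143 and 185 CPM (log2 fold change -1.60, SE 0.31, adjusted p = 0.0017), with a corrected value of -0.62 (adjusted p = 0.1). Cell replicate 3 had the lowest cell level of all 3 genes. Angptl4, an inhibitor of lipoprotein lipase, rose by contrast in every tumour, from 3.43, 3.63 and 3.09 CPM to 52.2, 87.9, 93.5, 82.1 and 85.5 CPM (log2 fold change 4.67, SE 0.21, adjusted p = 3e-10; corrected 4.66). Ndrg1 and Car9, a carbonic anhydrase, rose by 0.88 and 2.10.

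Hypoxia-inducible factors bind the core ACGTG. On either strand it was present in 17 of 34 promoter windows of the hypoxia list (50%), from 22 matched genes, and in 25.5% of the windows of tested genes and 19.6% of all. Genes with the core moved in different directions, as 4 stretches with the core or its reverse complement in capitals show.
Ankrd37 (chr8:45999837-45999866, minus strand): gtgtttgggtACGTGaggccgcagcggggc
Bnip3 (chr7:138909594-138909623, minus strand): cacgcgccgcACGTGccacacgctcccccg
Ero1a (chr14:45318616-45318645, minus strand): cgcgccgctgCACGTccgcaggggaggcgg
Vegfa (chr17:46025355-46025384, minus strand): agtgcgtgccCACGTcagagagcaacatca
Ankrd37 rose by 1.66, with a corrected value of 0.80 (adjusted p = 0.067), Bnip3 and Ero1a fell as counted, and Vegfa overlapped.

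Glycolysis depended on the correction. As counted 8 of 17 genes rose and 3 fell, with a median of 0.25; corrected, 1 rose (Pfkp) and 9 fell, with a median of -0.39. Gapdh was at 3486, 3712 and 3241 CPM in cells and 3868, 5835, 4547, 5329 and 5089 CPM in tumours, a rise of 0.62 (SE 0.12, adjusted p = 0.00019); once corrected the value was -0.39 (adjusted p = 0.005). Slc16a1, a lactate and pyruvate transporter, fell in both fits, from 224, 212 and 253 CPM to 63.1, 52.2, 66.2, 56.4 and 67.8 CPM (log2 fold change -1.80, SE 0.09, adjusted p = 9.2e-11; corrected -0.90). Among vessel factors Angpt2, which destabilises vessels and is made by endothelium, rose from 0.35, 0.726 and 0.562 CPM to 8.79, 12.2, 12.6, 17.1 and 15.2 CPM (log2 fold change 4.68, SE 0.30, adjusted p = 1.2e-09). Vegfc rose by 0.93, Nrp2, a VEGF co-receptor, fell by 1.32, and Vegfb rose by 0.59 as counted and fell by 0.58 corrected.

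Ribosomal protein and respiratory genes depended on the correction too. As counted, 26 of 27 cytosolic ribosomal protein genes rose, 14 more than 2-fold, with a median of 1.08; corrected, 14 rose, 6 fell and the median was 0.25. Rplp1, a stalk protein, rose by 2.39 as counted and by 0.84 corrected, and Rpl23 by 1.76 and 1.43. Nuclear genes of the respiratory chain went from 14 higher and 6 lower of 21 to 6 higher and 10 lower. Cox5b rose in both fits, by 2.91 and 2.20, and the complex I subunit Ndufs1 fell in both, at -1.27 and -0.90.

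Of 13 mRNAs encoded in mitochondrial DNA, 11 fell and 2 rose, and corrected 10 fell and 2 rose. Their share of all counts was 3.64% to 4.60% in cells and 1.5% to 2.78% in tumours, with tumour 2 the highest. ND1, a complex I subunit, was at 5404, 4433 and 5429 CPM in cells and 974, 1573, 832, 1077 and 984 CPM in tumours (log2 fold change -2.12, SE 0.18, adjusted p = 5.6e-07). The 2 that rose were ATP8 and COX3, at 2.77 and 1.53. ATP8 and ATP6 share part of their sequence, and ATP6 fell by 1.27, so the split of reads between the pair is uncertain. COX1 stood at -0.38 (SE 0.15, adjusted p = 0.035) as counted and 0.15 (adjusted p = 0.24) corrected, with overlapping groups. Its call was lost without cell replicate 1 or 3 and without tumour 1, 3, 4 or 5, at values of -0.39 to -0.30 (adjusted p 0.052 to 0.14).

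Stress programs were mixed. Of 12 genes of the integrated stress response tested, 8 rose, 5 more than 2-fold, and 1, Vldlr, fell. After the correction 6 rose, 3 of them more than 2-fold, 2 fell, and Vldlr stood at 0.23 (adjusted p = 0.24). Nupr1, a stress-induced chromatin protein, went from 11.6, 21.4 and 10.5 CPM to 219, 301, 229.9, 244 and 272 CPM (log2 fold change 4.24, SE 0.23, adjusted p = 1.2e-08; corrected 3.02), and Atf5 from 58.9 to 65.6 CPM to 351 to 447 CPM (log2 fold change 2.74, SE 0.11, adjusted p = 6.6e-12). Atf4, the factor that drives the program, rose by 0.53 and, corrected, fell by 0.20. Endoplasmic reticulum chaperones were split, 9 higher and 10 lower of 20 as counted and 6 and 6 corrected; Calr rose by 1.01, and Hsp90b1 and Hspa5 fell, at -0.85 and -0.72. Among heat shock genes Hsp90aa1 fell from 1922, 1812 and 2250.3 CPM to 573, 625, 672, 564 and 660.3 CPM (log2 fold change -1.58, SE 0.09, adjusted p = 2.6e-10), and the mitochondrial chaperone Hspd1 fell by 1.61. Hspa1a, the inducible HSP70, was at 0.0700, 0.594 and 0.281 CPM in cells and spread widely in tumours, at 1.6, 15.2, 4.5, 9.48 and 6.00 CPM (log2 fold change 4.60, SE 1.07, adjusted p = 0.0047). The Hspa1a value was 5.43 without cell replicate 2, and limma-voom did not call it (4.47, adjusted p = 0.061). Amino acid genes leaned lower, 15 of 20 as counted and 13 corrected, with Mthfd1l at -1.15 and -1.19, and Pycr1, which makes proline, rose by 1.27 and 0.91.

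Lysosomal genes rose in 17 of 24 cases as counted and 16 corrected. Ctsd, an aspartic cathepsin, went from 225, 230.1 and 193 CPM to 1197, 909, 1243, 1051 and 1036 CPM (log2 fold change 2.44, SE 0.11, adjusted p = 2.4e-11), and Ctsh rose by 4.39. Gpnmb, a melanosomal and lysosomal glycoprotein, fell from 555, 519 and 458 CPM to 62.8, 87, 69.4, 112 and 103 CPM (log2 fold change -2.44, SE 0.17, adjusted p = 1.1e-07; corrected -2.27). Immediate early genes, p53 targets, NRF2 targets and the YAP and SRF targets were each divided between rises and falls, with medians between -0.21 and 0.09. Within them Fos rose by 3.18, Ier3 fell by 2.32, Gclc fell by 1.51, Mdm2 fell by 1.28 and Tagln2, an actin-binding protein, rose by 2.97. Actb, often used as a reference, rose from 2514, 2414 and 2418 CPM to 3617, 3359, 3321, 3311 and 3416 CPM (log2 fold change 0.59, SE 0.08, adjusted p = 5e-06; corrected 0.17).

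**Figure D4:**
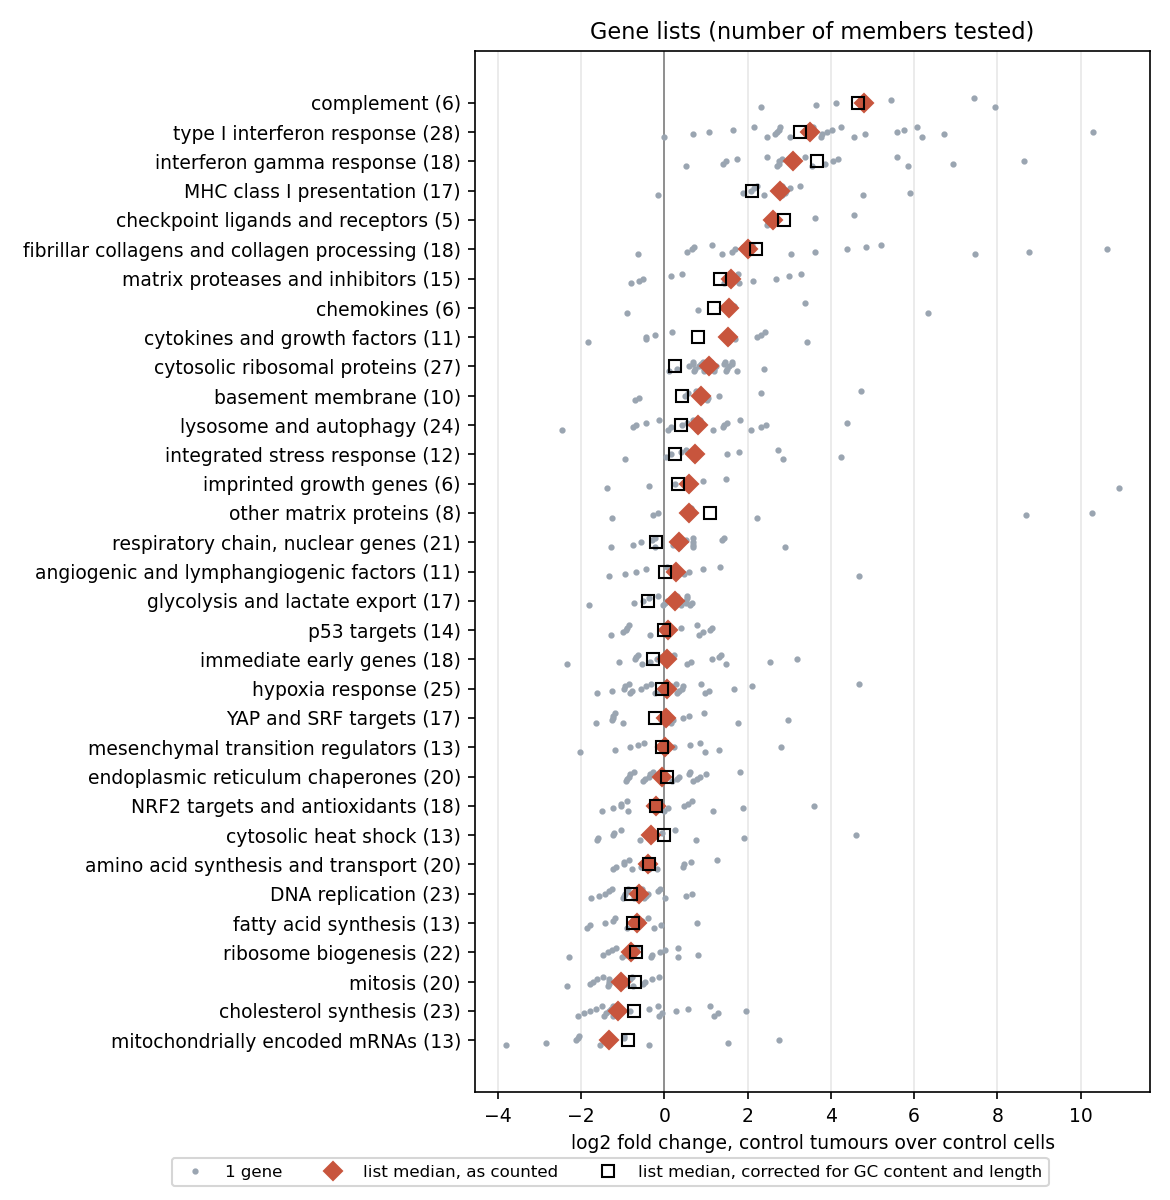
Log2 fold change of tumours over cells (horizontal) for the tested members of each program list (grey points), with the list median as counted (diamond) and corrected for GC content and length (open square). Interferon, class I, complement and collagen medians lie at or above 2.0 on the log2 scale, and mitosis, cholesterol and mitochondrial mRNA medians lie below 0 in both.

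The largest losses included growth factors and transporters of the cultured line. The proliferin genes Prl2c2 and Prl2c3, which encode secreted prolactin-family growth factors, were at 41.9, 39.5 and 87.8 CPM and 26.5, 23.7 and 54.8 CPM in cells and at most 1.27 and 0.5 CPM in tumours (log2 fold change -5.98, SE 0.35, adjusted p = 9.4e-08 and log2 fold change -6.69, SE 0.38, adjusted p = 1.5e-08). Prl2c3 and Prl2c4 have the same counts in every library, so these near-identical copies cannot be separated. Cell replicate 3 had the highest level of both among the cells, and no tumour came near a cell library. Nptx1, neuronal pentraxin, fell from 1085, 1053 and 899 CPM to 35.6, 25.8, 37, 33.7 and 29.6 CPM (log2 fold change -4.86, SE 0.11, adjusted p = 6.2e-14), with a corrected value of -5.02. Slc5a3, the myo-inositol transporter that answers high salt, went from 379, 334 and 271 CPM to 18.9, 21, 21.3, 17 and 20 CPM (log2 fold change -3.95, SE 0.10, adjusted p = 2.5e-13; corrected -2.47). The endocytic receptor Lrp2, the EGF-receptor ligand Ereg, the phosphate regulator Phex and Lancl3 fell, at -4.44, -3.74, -3.78 and -4.41, and so did Zbed6 and Fam199x, at -3.53 and -3.59. Each of these falls was also called after the correction. Genes listed at 0 in tumours were low in cells: the highest means were those of the predicted gene Gm2026, at 8.89, 7.46 and 13.1 CPM, Zfp968, at 0, 16 and 9.41 CPM, and Atp13a4, at 3.5, 2.57 and 2.81 CPM.

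Of 13 regulators of mesenchymal state tested, 5 rose and 5 fell, which is near the background of 40.7% and 38.3%. S100a4, a calcium-binding protein of motile cells and macrophages, rose from 258, 363 and 281 CPM to 2112, 1766, 1947, 1809 and 2035 CPM (log2 fold change 2.80, SE 0.12, adjusted p = 1.1e-11), and the TGF-beta receptor Tgfbr2 rose by 1.32. Cdh2, N-cadherin, fell from 40.5, 40.1 and 44.5 CPM to 7.79, 9.72, 9.87, 11.4 and 8.83 CPM (log2 fold change -2.02, SE 0.12, adjusted p = 2.3e-10; corrected -1.67). Zeb1 rose in both fits, by 0.85 and 1.65, whereas Zeb2 fell by 0.83 as counted and rose by 0.67 corrected.

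The 5 tumours were not alike. Tumour 1 had the highest summed levels of macrophage, T cell and natural killer markers and of MHC class II genes, the last at 4514, 2137, 2856, 2797 and 2198 CPM in tumours 1 to 5. It also had the lowest summed level of hypoxia genes, at 1285, 2028, 1567, 1976 and 2139 CPM, and the lowest of glycolysis genes, at 13874, 17956, 15875, 18954 and 19106 CPM. Tumour 2 had the lowest class II and natural killer sums and the highest mitochondrial mRNA sum, 15032, 27782, 16459.9, 18656 and 18149.7 CPM. Mitosis genes varied little, at 1914, 1930.0, 2033, 1791 and 1967 CPM. With 5 tumours these are values of single libraries, and no relation between them was tested. Among the cell libraries, replicate 3 had a lower hypoxia sum (2636, 2720.4 and 1856 CPM) and a higher sum of ribosome biogenesis genes (5300.2, 5523 and 6865 CPM).

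**Figure D5:**
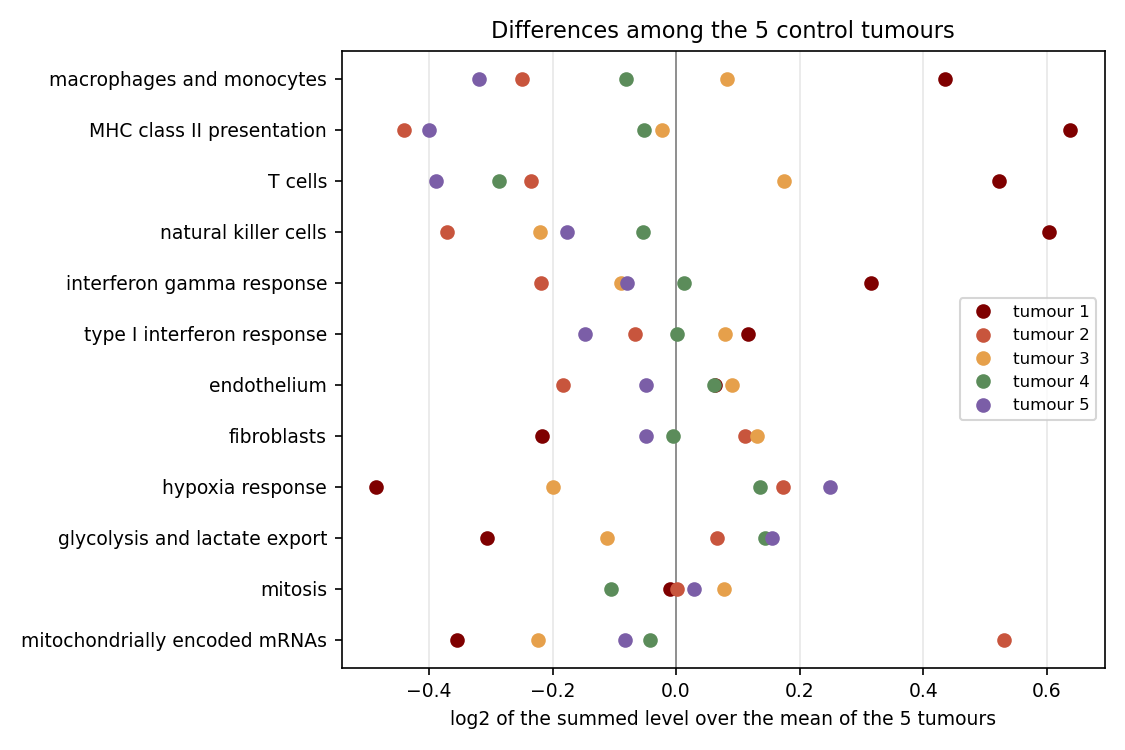
Summed level of 12 gene lists in each control tumour, as log2 of the ratio to the mean of the 5 tumours (horizontal). Tumour 1 stands to the right for the macrophage, class II, T cell and natural killer lists and to the left for the hypoxia list, and tumour 2 stands to the right for mitochondrial mRNAs.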

How the data were processed

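RNA was measured by poly(A)-selected RNA sequencing in 5 control tumours and 3 control cultures, per the labels' protocols. The authors deposited a table of whole-number counts per gene symbol; the submitters' processing notes name cutadapt 1.18, STAR 2.7.1a, HTSeq 0.13.5 and hg38, although the symbols are mouse, and the mouse build and the use of strand are not given in the sources used here. From these counts, edgeR 4.0.16 (R 4.3.3) fitted the 8 libraries alone with TMM scaling, the filterByExpr filter and the robust quasi-likelihood test, with Benjamini-Hochberg adjustment over 12415 genes at 0.05. CPM values use each library's total over all symbols. Replicate counts differed by more than sampling noise in every pair, with chi-square per degree of freedom of at least 7.87.

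Members and gene lists were chosen with earlier results of these data known. Genes were named by rule. It took the 12 largest rises and falls with at least 20 CPM in the higher group, and the leading genes listed at 0 in one group. Of each list it took the 3 largest changes and the largest opposite one at 5 CPM or more. These rises, falls and changes also had to be called and to have no overlap between the groups. A further 11 genes were fixed. All other genes named (exceptions of a list, members of small counts, and genes beside another gene) were chosen after their values were seen. Transcript length and GC content came from the longest GENCODE M21 transcript of each symbol, coding ones first, found for 98.3% of tested genes. In the correction, a smooth surface over GC content and log2 length (mgcv 1.9.3) was fitted in each library. It was fitted to the library's deviation from the mean of both group means. The surface was removed as an offset, centred at the median residual in place of TMM scaling. Alternatives were DESeq2 1.42.0, limma-voom (3.58.1), other scalings and filters, thinning, a replicate block and leaving out each library. A few members of the lists are counted in them but not reported here singly.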

Additional observations from a re-analysis of the deposited data

Results flagged for a closer look

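Of 256 values compared among the 5 tumours (summed gene lists, library shares and single genes), 19 had 1 tumour set apart from the other 4 by more than Dixon's critical value of 0.71, where chance gives about 1 in 20. No cause was tested for any of them.

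Tumour 1 was apart for 11 values, 8 of them of immune genes or lists, while the sums for macrophages and T cells were not set apart. Many of the values compared are of immune genes or lists and can vary together. Their share was not counted, so the 8 do not measure an immune excess. Its summed CPM was 73.2 for natural killer markers, where the other tumours lay at 37.3 to 46.5, and 45.2 for B and plasma cell markers, against 18.9 to 25.9. It was also the highest for the class II chains H2-Aa (1116 CPM, the others 476 to 618) and H2-Eb1 (960.4 CPM, the others 382 to 543). The same held for the chemokine Ccl5 (179 CPM, the others 107 to 126) and the interferon-induced GTPases Gbp4 (259 CPM, the others 159 to 185) and Igtp (399.9 CPM, the others 257 to 288). Fbl, a nucleolar methyltransferase, was at 325 CPM in tumour 1 and 284 to 294 CPM elsewhere. The transcription factor gene Batf3 was at 7.42 CPM in tumour 1. Tumour 1 was the lowest for Angptl4, at 52.2 CPM, and for the matrix protein Tnc, at 52.9 CPM.

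Tumour 2 had 2.78% of its counts in mRNAs encoded in mitochondrial DNA (27782 CPM), while the others had 1.5% to 1.87%. It had the highest B2m level, 3501 CPM, and the lowest level of the mast cell tryptase Tpsb2, 20.7 CPM. Its Schwann cell marker sum was 2.61 CPM. Tumour 4 stood apart for the neutrophil gene S100a9, at 5.2 CPM. Tumour 5 stood apart for Pfkp, at 57.8 CPM, and for Krt20, at 0.777 CPM, which are small differences in level.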

How the results depend on the processing

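The main counts were 5054 genes higher and 4761 lower. Leaving out each library in turn gave 4839 to 5073 higher and 4576 to 4790 lower, and beyond 2-fold 2509 to 2690 and 2000 to 2141 (2599 and 2053 with all libraries). The largest moves were 4104 genes more than 2-fold higher when all genes with a count in either group entered the fit, and 913 more than 2-fold lower after the GC content and length correction, which was chosen after seeing the data. The counts under DESeq2 scaling, library totals, the DESeq2 and limma-voom tests, other filters and thinning stayed within 1.5 times the main ones. Library totals moved the median of all genes by -0.11 on the log2 scale. For the 36 gene lists recomputed, the median changed sign in 20 cases under settings other than the correction, counted per list and setting. The share of tumour counts from genes listed at 0 in cells was 1.89%, 3.02% when genes under 1 CPM in cells were included, and 1.76% to 1.98% with 1 library left out. The replicate spread was 0.0744 to 0.118 in cells and 0.0951 to 0.123 in tumours with 1 library left out.

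No pairing by replicate number was seen. Same-numbered cells and tumours had correlations of deviations of -0.08, -0.01 and 0.02, and differently numbered ones -0.11 to 0.09. So few pairs cannot show that the samples are unpaired. With the replicate block, 4693 genes were higher and 4489 lower.

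Of 163 genes named and tested, each recomputed under 18 settings, 19 changed direction with a call in at least 1 of the fits compared, all under the GC content and length correction: Atf4 (-0.20), Bop1 (-0.41), COX1 (0.15), Erap1 (1.02), Fbl (-0.29), Gapdh (-0.39), Grb10 (0.11), Ifit2 (0.86), Mvk (-0.43), Ncl (0.32), Nle1 (-0.66), Pdgfra (0.58), Plod2 (0.11), Pold1 (-0.18), Tcf7 (-0.051), Vegfb (-0.58), Vldlr (0.23), Wdr12 (0.68) and Zeb2 (0.67). Some of these 19 also lost or gained a call. Apart from them, 47 of the 2934 values recomputed lost a call and 8 gained one with the direction kept. Those lost under limma-voom were Bnip3 (adjusted p = 0.0504) and Hspa1a. Genes called in neither fit also changed sign, such as Vegfa and Myc without tumour 1 (0.061 and 0.025), Vim without cell replicate 1 (0.028) and Mbtps1 without cell replicate 3 (-0.0068). The cause was not tested. Low counts limit genes near 0 in cells, whose fold changes depend on the prior count.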
